A study of Homo sapiens with 18 samples.

Results

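The clustered protocadherins are cell-surface adhesion proteins encoded by 3 neighbouring gene arrays on human chromosome 5, the alpha, beta and gamma clusters. The genes were chosen with earlier results of these data known, by a rule on symbols that used no measured value. Every row named PCDHA, PCDHB or PCDHG with a member number was taken, and 53 of the 26475 genes of the table met the rule. They comprised 13 alpha, 16 beta, 12 gamma A and 7 gamma B genes and 5 C-type genes (PCDHAC1, PCDHAC2, PCDHGC3, PCDHGC4 and PCDHGC5), and for counts by array the C-type genes were placed with their own cluster, which gave 15, 16 and 22 genes. RNA sequencing was done in Mel92.1 and MP41, 2 established cell lines from human uveal melanoma, each kept with DMSO as the vehicle control, with UNC0642 at 1 μM for 48 h or with A366 at 1 μM for 48 h. UNC0642 and A366 are small-molecule inhibitors of EHMT2 (G9a), an enzyme that methylates lysine 9 of histone H3 (H3K9), and of its relative EHMT1. There were 3 replicates in each of the 6 groups and 18 libraries in all. The study's methods speak of biological replicates for its experiments in general, and the labels do not say whether these libraries came from separate cultures, so p-values measure the spread between these libraries.

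Each variable exon of these arrays has a promoter of its own. In the alpha and gamma clusters the transcript that starts at a variable exon is spliced to constant exons that all members of the cluster share, while the beta genes consist of a single exon with no constant part. Neurons, the cells in which the family is best known, switch on a few of the promoters in each cell, which gives the cell a surface identity. Chosen promoters are bound by CTCF and cohesin at a conserved sequence element and looped to distal enhancers, whereas silent ones carry DNA methylation and, in the arrays as a whole, H3K9 methylation. The comparison of inhibitor with DMSO therefore asked whether members were expressed at another level once EHMT2 was inhibited, and the comparison of the DMSO libraries asked which members each tumour line used.

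On GRCh38 with GENCODE release 29, all members lie on the plus strand. The alpha cluster spans chr5:140786136-141012347, the beta cluster chr5:141051135-141249365 and the gamma cluster chr5:141330571-141512981. Exons shared with another member made up a median of 46.7% of the annotated exonic bases of an alpha gene, 39.1% of a gamma A gene, 45.7% of a gamma B gene and 43.7% of a C-type gene, and 0% of each beta gene. The authors' counting divided reads that fit several genes. Among values of at least 10 counts, 84.0% of the alpha values, 84.4% of the beta values and 85.7% of the gamma values lay more than 0.05 from a whole number, against 16.1% for all other genes, so reads were divided in the beta cluster too. Counts of single members are therefore uncertain in all 3 arrays, and the sums over an array depend less on that division.

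Promoter sequence was available from RefSeq (GRCh38.p14) for 47 members, in windows of 250 bases before to 50 bases after the start. The conserved element of these promoters holds the letters CGCT. On the gene's own strand CGCT was found in the window of 46 of 47 members, and in 57.7% of the windows of all 27305 genes. When the reverse strand was searched as well, the counts were 46 of 47 members and 71.9% of genes. Longer words around it, picked by counting words in these same windows and given only as a description, separated the arrays. GGTGGCGCT was found in 13 of 14 beta genes, in 0 of 33 other members and in 0.374% of all genes. CGCTGT was found in 10 of 11 gamma A, 5 of 7 gamma B, 3 of 4 C-type, 5 of 11 alpha and 1 of 14 beta genes, and in 7.2% of all genes. Both longer words contain CGCT. The stretches around the CGCT word before the RefSeq start follow for the 7 members that passed the threshold in an inhibitor comparison and, because it was the most abundant alpha gene of MP41, for PCDHA4, with every CGCT in capitals and all on the plus strand:
PCDHA4: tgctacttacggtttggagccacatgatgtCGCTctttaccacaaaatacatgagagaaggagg
PCDHA11: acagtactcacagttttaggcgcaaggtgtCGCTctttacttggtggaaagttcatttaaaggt
PCDHB2: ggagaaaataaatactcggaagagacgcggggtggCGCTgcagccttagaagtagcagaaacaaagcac
PCDHB5: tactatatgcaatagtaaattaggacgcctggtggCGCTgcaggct
PCDHB16: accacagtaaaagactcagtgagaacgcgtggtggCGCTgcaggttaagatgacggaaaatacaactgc
PCDHGB7: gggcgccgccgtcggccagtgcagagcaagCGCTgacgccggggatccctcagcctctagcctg
PCDHGA11: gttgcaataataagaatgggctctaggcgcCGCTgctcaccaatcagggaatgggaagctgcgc
PCDHGC3: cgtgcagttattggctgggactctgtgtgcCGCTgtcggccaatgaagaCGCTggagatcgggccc
These stretches are, in the same order, chr5:140806965-140807028, chr5:140868869-140868932, chr5:141094525-141094593, chr5:141135160-141135205, chr5:141182291-141182359, chr5:141417593-141417656, chr5:141420958-141421021 and chr5:141475866-141475931. The matched word began 73, 58, 60, 16, 66, 54, 63 and 70 bases before the RefSeq start of the window. Except for PCDHB5, that RefSeq start lies downstream of the GENCODE gene start given further on. For PCDHA4, PCDHA11 and PCDHB16 the matched word itself also lies downstream of the GENCODE gene start. The 3 beta stretches share the word GGTGGCGCT. In the window of PCDHGB6 the run gggcgcCGCTgtcggcc precedes a later CGCT, and in PCDHGB7 the same run reads gggcgccgccgtcggcc. The CGCT marked for PCDHGB7 is thus the later one, outside that run. A match is a description of these letters and was not tested for binding of any factor.

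Total counts ran from 23601156 to 62941462 per library, so 1 CPM (counts relative to library size, scaled by TMM factors over all 18 libraries) stood for 16.5 to 57.8 counts. The study's own lists of changed genes place 4 libraries, those labelled A366 replicates 2 and 3 of either line, under the other line, and that placement was used here. By Spearman's rho over 13063 genes, these 4 libraries reached at least 0.962 with the DMSO libraries of the line they were placed in and at most 0.851 with those of the line on their label. PCDH20, a protocadherin outside the arrays, was at 457 to 708 CPM in the 9 libraries placed in Mel92.1 and at most 0.121 CPM in those placed in MP41. A366 results are therefore also given with libraries as labelled and without the 4 libraries. One more library stood apart, Mel92.1 UNC0642 replicate 1, with the lowest total, 13344 genes with a count against 16296 to 18217 in the other 17 libraries, and 37 of 53 members at 0 counts against 5 to 17. The melanocyte markers summed to 21010 to 24420 CPM in Mel92.1 and 15060 to 16310 CPM in MP41, with S100B below 1 CPM in all Mel92.1 libraries, whereas the 6 neuron markers summed to at most 1.64 CPM in Mel92.1 and 2.21 CPM in MP41.

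**Figure D1:**
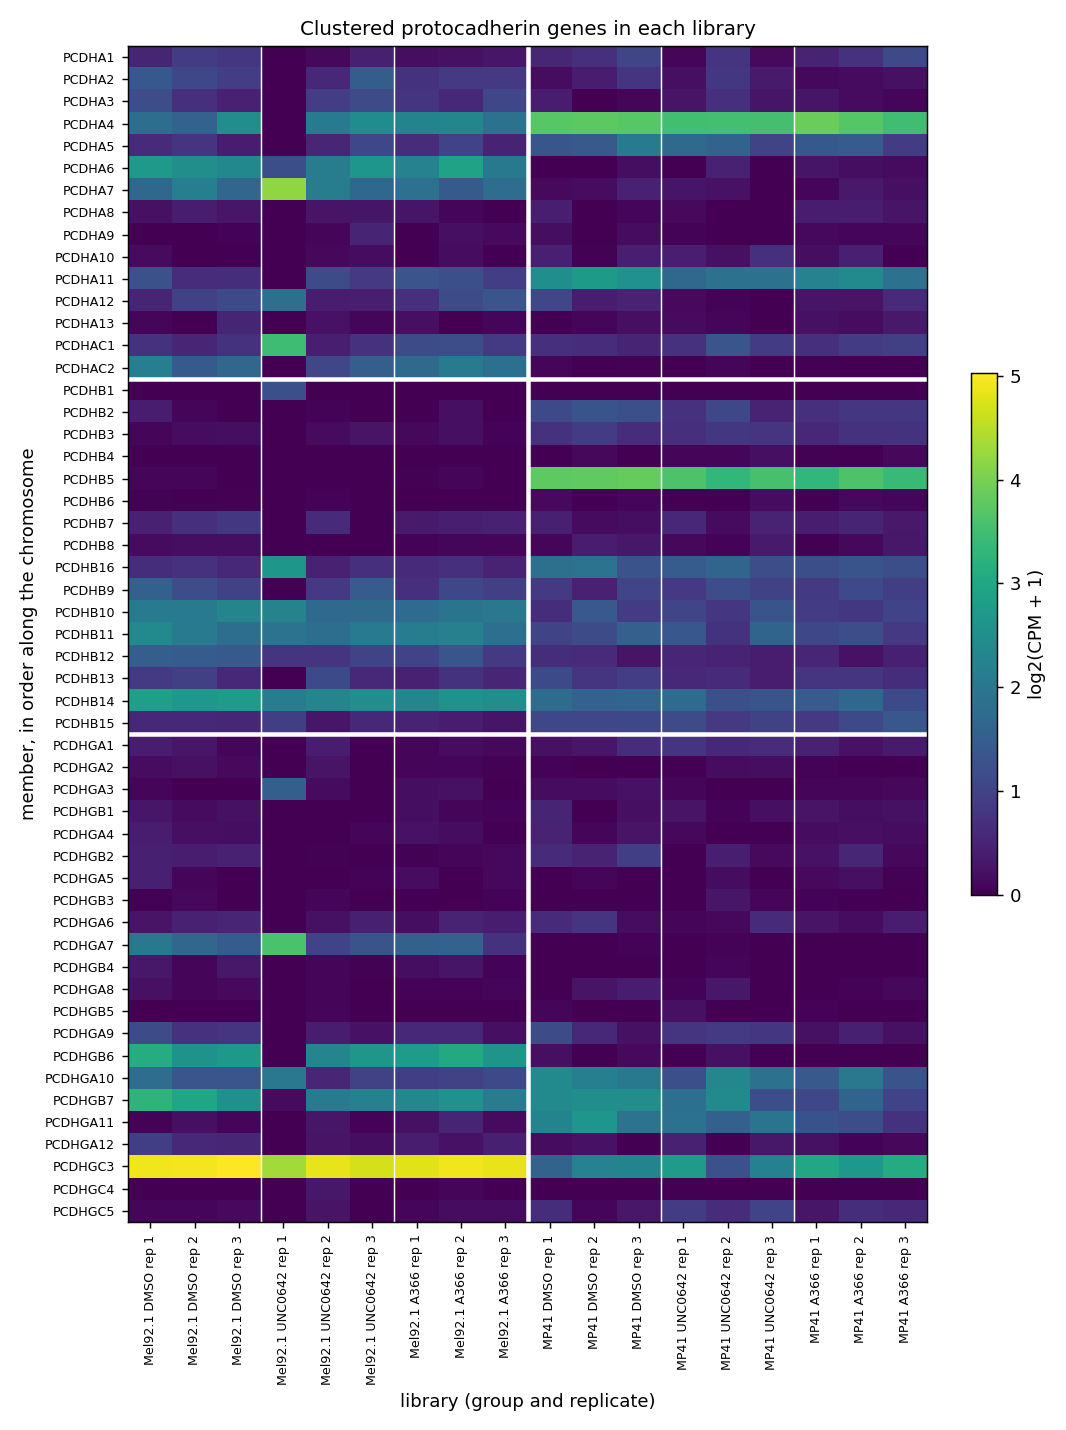
Level of all 53 members (rows, in order along the chromosome, white lines between the alpha, beta and gamma clusters) in the 18 libraries (columns, 3 replicates in each group), as log2(CPM + 1). The bright rows differ between Mel92.1 on the left and MP41 on the right, and Mel92.1 UNC0642 replicate 1 has 37 members at 0.

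The family was expressed at a low level in both lines, and the lines used different members. With DMSO all members together summed to 87.7 ± 7.48 CPM in Mel92.1 and to 66.8 ± 0.835 CPM in MP41 (SD, n = 3). Only 15 members in Mel92.1 and 14 in MP41 averaged at least 1 CPM, 7 of them (PCDHA4, PCDHB10, PCDHB11, PCDHB14, PCDHGA10, PCDHGB7 and PCDHGC3) in both lines, and 31 members reached that level in neither. Mel92.1 was led by PCDHGC3, a C-type gamma gene, and MP41 by PCDHB5. By the quasi-likelihood test of edgeR, with p-values adjusted by Benjamini and Hochberg's method across the 15799 genes fitted for both lines, 21 of the 38 members tested differed between the DMSO libraries, 12 of them higher in Mel92.1 and 9 higher in MP41. Of all genes tested, 69.4% differed between the lines, so the share of members that did (55.3%) was no larger than that of genes at large.

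PCDHGC3 (chr5:141475947-141512979), one of the C-type genes that are expressed more widely than the other members, was at 29.3, 29.6 and 31.6 CPM in the Mel92.1 DMSO libraries and at 2.02, 3.68 and 3.82 CPM in those of MP41. The groups did not overlap, and the log2 difference of Mel92.1 from MP41 was 3.25 (SE 0.33, adjusted p = 1.27e-07 by edgeR). Per kilobase of the longest transcript it was the highest member of Mel92.1, at 6.39 ± 0.259 CPM per kb, and it held 60% ± 6.8 of the gamma cluster's counts there against 17.2% ± 5.84 in MP41 (SD, n = 3). PCDHAC2, at the 3′ end of the alpha array, was at 3.5, 1.67 and 2.15 CPM in Mel92.1 and at 0.0433, 0 and 0.0217 CPM in MP41 (adjusted p = 2.57e-05 by edgeR). PCDHAC1 averaged 0.589 CPM in Mel92.1 and 0.533 CPM in MP41. PCDHGC5 averaged 0.0706 and 0.294 CPM and did not pass the test (adjusted p = 0.0706 by edgeR), and PCDHGC4 was at 0 counts in all 6 DMSO libraries.

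PCDHB5 (chr5:141135218-141138625) showed the opposite use. It was at 12.8, 13 and 13.3 CPM in the MP41 DMSO libraries, which is 559 to 614 counts, and at 0.0493, 0.058 and 0 CPM in those of Mel92.1, where the counts were 2.41, 2.18 and 0 (adjusted p = 3.15e-11 by edgeR). It was the highest member of MP41 per kilobase, at 3.83 ± 0.0798 CPM per kb, and held 50.9% ± 1.66 of the counts of the beta cluster. The other beta genes differed less. PCDHB2, PCDHB3, PCDHB15 and PCDHB16 were also higher in MP41, whereas PCDHB14, PCDHB10, PCDHB11 and PCDHB12 were higher in Mel92.1, where PCDHB14 was at 6.11, 5.42 and 5.9 CPM against 2.44, 1.98 and 2.11 CPM in MP41 (log2 difference 1.42, SE 0.25, adjusted p = 6.59e-05 by edgeR). PCDHB14 took 31.6% ± 1.98 of the beta counts in Mel92.1 and 8.49% ± 1.01 in MP41 (SD, n = 3). In the beta array the 2 lines thus each had their own leading gene.

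In the alpha array MP41 relied on PCDHA4 and PCDHA11. PCDHA4 was at 12.1, 12.6 and 12.2 CPM in MP41 and at 2.52, 1.98 and 4.48 CPM in Mel92.1 (log2 difference -2.04, SE 0.52, adjusted p = 0.00195 by edgeR), and PCDHA4 held 54.6% ± 3.42 of the alpha counts in MP41. PCDHA11 was at 4.64, 5.69 and 4.83 CPM in MP41 and at 1.38, 0.559 and 0.584 CPM in Mel92.1 (log2 difference -2.56, SE 0.53, adjusted p = 0.000357 by edgeR). PCDHA5 was higher in MP41 as well. In Mel92.1 the leading alpha gene was PCDHA6, at 5.54, 4.61 and 4.06 CPM against 0, 0 and 0.143 CPM in MP41 (adjusted p = 1.9e-05 by edgeR). PCDHA7 and PCDHA3 passed the test in the same direction, PCDHA7 at a mean of 2.62 CPM in Mel92.1 against 0.195 CPM in MP41.

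In the gamma array PCDHGB7 was used by both lines, at 8.68, 6.74 and 4.78 CPM in Mel92.1 and 4.29, 4.68 and 4.62 CPM in MP41, and did not pass the test of the line difference. PCDHGA10 averaged 1.84 CPM in Mel92.1 and 3.59 CPM in MP41 (adjusted p = 0.0998 by edgeR). PCDHGA11 was at 3.84, 5.27 and 2.75 CPM in MP41 and at 0.0409, 0.16 and 0.0536 CPM in Mel92.1, 2 to 6 counts a library (adjusted p = 1.42e-06 by edgeR). PCDHGB6 was at 7.7, 5.01 and 5.44 CPM in Mel92.1 and at 0.148, 0 and 0.088 CPM in MP41 (adjusted p = 0.00012 by edgeR), and PCDHGA7 was at 3.08, 2.15 and 1.77 CPM against 0, 0 and 0.0409 CPM (adjusted p = 9.75e-05 by edgeR). PCDHGA12 was also higher in Mel92.1. PCDHGA9 averaged 0.866 CPM in Mel92.1 and 0.642 CPM in MP41, PCDHGB2 averaged 0.355 and 0.615 CPM, and PCDHGB1 averaged 0.195 CPM in MP41.

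**Figure D2:**
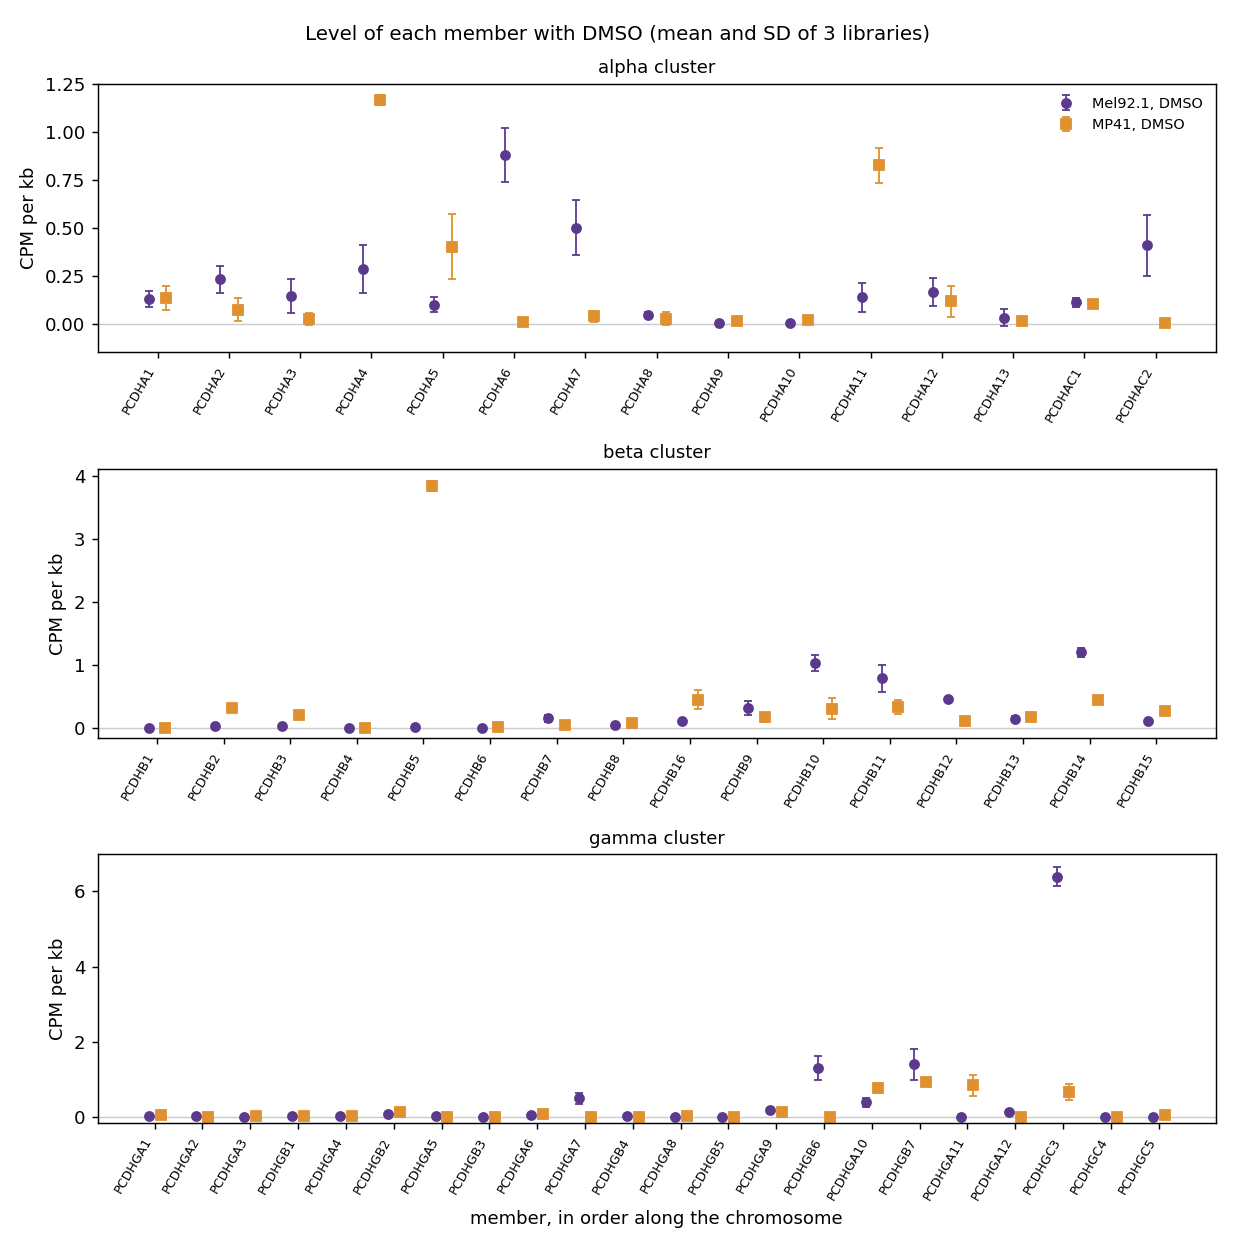
Level of every member with DMSO as CPM per kb of the longest transcript, with Mel92.1 (circles) and MP41 (squares) as mean and SD of 3 libraries, and 1 panel for each cluster with its own scale. PCDHGC3 stands out in Mel92.1 at 6.39 CPM per kb and PCDHB5 in MP41 at 3.83 CPM per kb.

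At these levels 30 members passed the filter on low counts in Mel92.1 and 32 in MP41, 24 of them in both lines and 15 in neither. The 15 untested members (PCDHA9, PCDHA13, PCDHB1, PCDHB4, PCDHB6, PCDHGA2, PCDHGA3, PCDHGB1, PCDHGA4, PCDHGA5, PCDHGB3, PCDHGB4, PCDHGA8, PCDHGB5 and PCDHGC4) held at most 31.1 counts in any library and were left out by the filter, so whether they changed was not tested. PCDHB1 had 22 counts in Mel92.1 UNC0642 replicate 1 and 0 in the other 17 libraries.

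EHMT2 RNA was present in both lines. It averaged 107 ± 1.61 CPM in Mel92.1 and 98.5 ± 3.01 CPM in MP41 with DMSO (SD, n = 3), and EHMT1 averaged 86.7 ± 6.58 and 39.9 ± 1.12 CPM. The inhibitors act on the enzymes and not on their RNA, so these levels do not check the treatment. EHMT2 passed the test in 1 of the 4 inhibitor comparisons, A366 in MP41, with a log2 change of 0.23 (SE 0.06, adjusted p = 0.00936 by edgeR), and EHMT1 in none of the 4.

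With UNC0642 in Mel92.1, 0 of the 30 members tested passed the adjusted threshold of 0.05, against a background of 0.688% of all 14528 genes tested. At an unadjusted p under 0.05 there were 2 members with a higher and 8 with a lower level. These were 10 of 30, against 9.93% of all genes in either direction. DESeq2 also called 0 members. The median log2 change of the tested members was -0.43 against -0.02 over all genes, and 23 of 30 estimates lay below 0. PCDHGB2 was the member with the smallest p, with 17.8, 12 and 14.7 counts in the DMSO libraries and 0, 1 and 0 with UNC0642 (adjusted p = 0.103 by edgeR). It was the 1 member past the threshold once Mel92.1 UNC0642 replicate 1 was left out, where the background was 1.24% and the median of the members was -0.40. In 8 of the 30 members all 3 UNC0642 libraries lay below all 3 DMSO libraries, against 8.01% of all genes tested. Of the 8 melanocyte markers, TYR and MLANA rose in this comparison (log2 change 0.49 and 0.34), and of the neuron, fibroblast, epithelial and blood markers 0 were called. The part of these shifts in the result was not tested.

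In several members that one library stood apart from the other 2 of its group. PCDHA7 was at 17.3, 3.3 and 2.22 CPM with UNC0642 against 2.21, 3.48 and 2.16 CPM with DMSO, PCDHAC1 at 10, 0.333 and 0.675 CPM against 0.655, 0.452 and 0.659 CPM, and PCDHGA7 at 11, 1.01 and 1.44 CPM. In each case replicate 1 alone was high and the other 2 libraries were near or below the DMSO level. The most abundant member, PCDHGC3, was at 19, 27.7 and 25.1 CPM with UNC0642, below its 3 DMSO libraries (log2 change -0.33, SE 0.13, adjusted p = 0.439 by edgeR). PCDHB14 was at 3.34, 3.87 and 4.55 CPM against 6.11, 5.42 and 5.9 CPM with DMSO, again without overlap (log2 change -0.56, SE 0.19, adjusted p = 0.353 by edgeR). These differences did not pass the adjusted test.

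With A366 in Mel92.1, 0 of 30 members were called, against 0.213% of all genes. At an unadjusted p under 0.05 there were 2 of 30, both lower, against 4.32% of all genes in either direction. DESeq2 called 0 members too, and so did the fits with libraries as labelled and without the 4 libraries, which called 0 genes of any kind. The median change of the members was -0.33 against -0.01 over all genes, and 24 of 30 estimates were below 0, with all 9 tested beta genes and all 9 tested gamma A and gamma B genes among them. PCDHGB2 again had the smallest p, with 1, 3 and 3.9 counts against 17.8, 12 and 14.7 with DMSO (adjusted p = 0.556 by edgeR). The A366 and UNC0642 comparisons share these 3 DMSO libraries, so the likeness of the 2 is not independent. PCDHGC3 was at 27, 29.4 and 28.1 CPM with A366, where the groups overlap, and PCDHB14 was at 3.97, 4.96 and 4.59 CPM (log2 change -0.36, SE 0.19, adjusted p = 1 by edgeR). In 11 of the 30 members all 3 A366 libraries were below all 3 DMSO libraries, against 7.24% of all genes.

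With UNC0642 in MP41, 0 of 32 members passed, against a background of 0.241% of 14956 genes. By unadjusted p under 0.05 there were 2 members with a higher and 7 with a lower level, against 8.80% of all genes in either direction. Among the markers of cell types DCT rose and S100B fell (log2 change 0.62 and -0.90), both of the melanocyte list, and 0 of the other lists were called. The part of these shifts in the result was not tested. The median was -0.28 against 0.00 over all genes. In 8 of the 32 members all 3 libraries lay below DMSO, against 9.29% of all genes. The member closest to the threshold was PCDHA11 (chr5:140868183-141012344), at 2.21, 2.7 and 2.67 CPM with UNC0642 against 4.64, 5.69 and 4.83 CPM with DMSO, without overlap (log2 change -1.0, SE 0.19, adjusted p = 0.0743 by edgeR). PCDHA11 passed with DESeq2 (with PCDHA12 as the other member called, also lower) and in 7 further alternatives of the fit. PCDHA12 had 50.9, 14.1 and 18.1 counts with DMSO and 4, 2 and 0 with UNC0642 (adjusted p = 0.147 by edgeR). PCDHB5 was at 11.4, 9.07 and 10.9 CPM, below its DMSO libraries (log2 change -0.33, SE 0.12, adjusted p = 0.422 by edgeR). The C-type genes leaned the other way, with PCDHAC1 at 0.64, 1.52 and 0.832 CPM against 0.606, 0.558 and 0.435 CPM (log2 change 0.90, SE 0.39, adjusted p = 0.528 by edgeR) and PCDHGC5 at 0.858, 0.564 and 1.01 CPM against 0.584, 0.0448 and 0.252 CPM.

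With A366 in MP41, 7 of 32 members passed the test, 6 of them lower and PCDHGC3 higher. This comparison called 46.0% of all genes, 3362 higher and 3522 lower, so the 21.9% of members called is below the background, and their number is not a result about the family. The direction was uneven. Of the tested members 24 of 32 had estimates below 0, with a median of -0.43 against 0.02 over all genes, where 48.2% of estimates were below 0. All 7 tested gamma A and gamma B genes were below 0, 2 of them called, and all 3 tested C-type genes were above 0, 1 of them called. In 7 of the 32 members all 3 A366 libraries were below all 3 DMSO libraries, against 26.7% of all genes. Markers of cell types moved in the same comparison. Of 8 melanocyte markers 4 rose and 3 fell, of 5 epithelial markers KRT8 and KRT18 fell from at most 1.02 and 0.883 CPM to at most 0.0646 and 0.0581 CPM, of 5 fibroblast markers COL1A1 and LUM fell (log2 change -0.43 and -0.26), and of 6 neuron and 4 blood markers 0 were called. Their part in the result was not tested.

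PCDHGA11 (chr5:141421047-141512979) fell the most of the called members. It was at 1.4, 1.27 and 0.676 CPM with A366 against 3.84, 5.27 and 2.75 CPM with DMSO (log2 change -1.84, SE 0.31, adjusted p = 0.000928 by edgeR). Its neighbour PCDHGB7 (chr5:141417645-141512979) was at 1.14, 2.09 and 1.01 CPM against 4.29, 4.68 and 4.62 CPM (log2 change -1.70, SE 0.37, adjusted p = 0.00321 by edgeR). Both fell without overlap of the groups, and PCDHGA11 passed under all 21 alternatives and PCDHGB7 under 20 of 21, the exception being the libraries as labelled (log2 change -0.52, adjusted p = 0.49 by edgeR). PCDHGA10 was at 1.64, 3.06 and 1.46 CPM against 4.19, 3.49 and 3.08 CPM and did not pass (log2 change -0.83, SE 0.36, adjusted p = 0.0803 by edgeR).

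In the beta array PCDHB5, the leading member of MP41, was at 9.1, 11.3 and 9.39 CPM with A366 against 12.8, 13 and 13.3 CPM with DMSO (log2 change -0.42, SE 0.12, adjusted p = 0.0118 by edgeR). It fell by a smaller fold than the gamma genes but with little spread, and lost its call as labelled and without MP41 A366 replicate 1 (adjusted p = 0.0657 by edgeR). PCDHB2 (chr5:141094578-141098703) was at 0.598, 0.729 and 0.74 CPM against 1.15, 1.48 and 1.34 CPM (log2 change -0.97, SE 0.36, adjusted p = 0.0419 by edgeR). PCDHB16 (chr5:141181399-141186399) was at 1.3, 1.47 and 1.3 CPM against 2.62, 2.75 and 1.43 CPM, where the groups overlap (log2 change -0.77, SE 0.28, adjusted p = 0.0428 by edgeR). PCDHB14 was at 1.7, 2.18 and 1.2 CPM and did not pass. In the alpha array PCDHA11 was at 3.71, 4.27 and 2.66 CPM against 4.64, 5.69 and 4.83 CPM (log2 change -0.53, SE 0.19, adjusted p = 0.0382 by edgeR), while PCDHA4 (chr5:140806929-141012344), the leading alpha gene, was at 13.8, 12.1 and 10.3 CPM against 12.1, 12.6 and 12.2 CPM (log2 change -0.06, SE 0.11, adjusted p = 0.697 by edgeR). The calls of PCDHB2, PCDHB16 and PCDHA11 lie close to the threshold, and each was lost in 8 or more of its alternatives.

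PCDHGC3 moved the other way. It was at 6.96, 5.43 and 7.51 CPM with A366 against 2.02, 3.68 and 3.82 CPM with DMSO, without overlap (log2 change 1.04, SE 0.38, adjusted p = 0.042 by edgeR). With UNC0642 its 3 libraries spread from 1.41 to 5.8 CPM. Its call was lost in 12 of 21 alternatives, among them DESeq2 (adjusted p = 0.0829), library size without a composition factor (adjusted p = 0.0544 by edgeR) and each MP41 DMSO library left out in turn. The estimate stayed between 0.80 and 1.2 in all alternatives other than the libraries as labelled, where it was 2.79. PCDHGC3 and the gamma A and gamma B genes share their constant exons, and how the counting divided the reads of those exons among them was not tested.

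**Figure D3:**
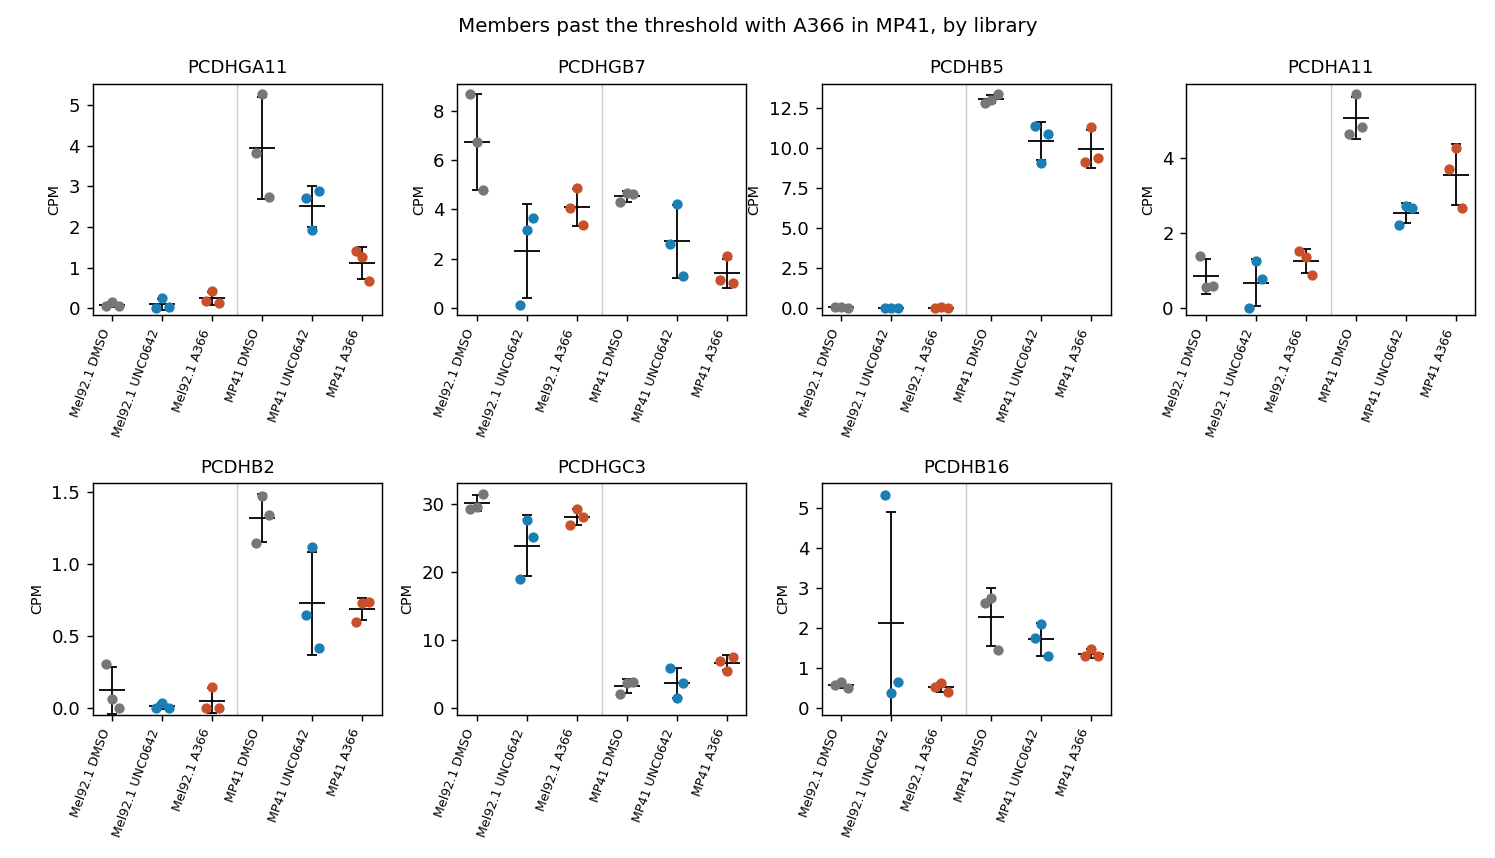
CPM of the 7 members past the threshold with A366 in MP41, for every library (points), with the group mean and SD (bars, n = 3), each panel on its own scale. In MP41 the A366 points lie below the DMSO points for 5 of the members, overlap them for PCDHB16 and lie above them for PCDHGC3, and PCDHB5 and PCDHGA11 are near 0 in Mel92.1.

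With the 4 exchanged libraries put back under their labels, 5 members passed in MP41, 2 higher and 3 lower, against 32.8% of all genes, and without these libraries, which leaves 1 A366 library a line that is assumed to vary like the others, 3 passed, all lower, against 35.7% of all genes. The count fell to 2 without MP41 A366 replicate 1, to 3 without MP41 A366 replicate 3 or without MP41 DMSO replicate 2, and to 4 without MP41 DMSO replicate 1. With GC content and length taken into account as an offset, 4 members passed. The share of all genes called is not given for the left-out libraries or the offset, so these counts are not set against a background. Of the 7, PCDHGA11, PCDHGB7 and PCDHB5 kept their calls under this offset. The other member that passed was PCDHA4, which was not called in the main fit (log2 change -0.06). Over its 21 alternatives the estimate of PCDHA4 ran from -0.867 to 0.509, with the opposite sign in 4 of them.

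**Figure D4:**
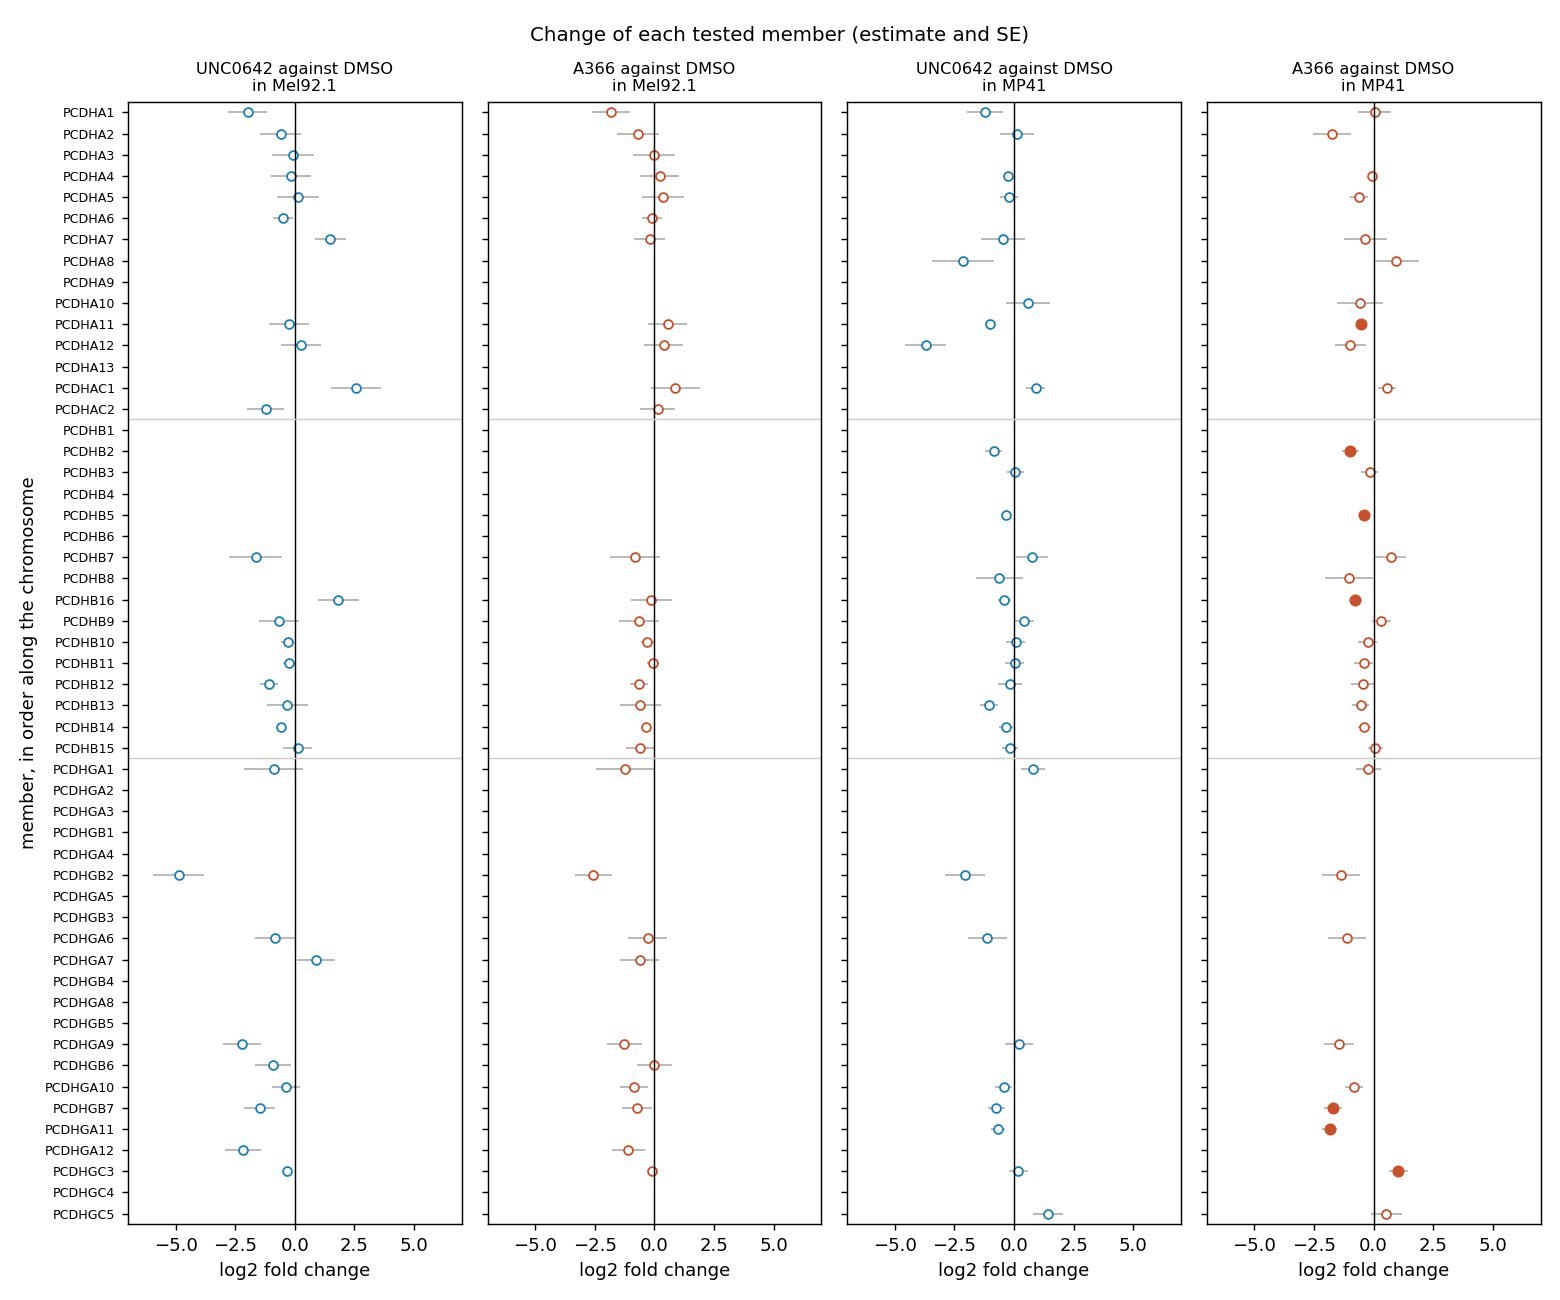
Estimated log2 change (points) with SE (lines) of each tested member in the 4 comparisons of inhibitor with DMSO, in order along the chromosome, with filled points for an adjusted p under 0.05 and no point for members below the filter. Most points lie left of 0, and the 7 filled points are all in A366 against DMSO in MP41.

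The sums over each array add up the same member counts by library and are a description with no test. The beta cluster summed to 20.1, 17.8 and 17.4 CPM with DMSO in Mel92.1, to 18.2, 12.7 and 14.6 CPM with UNC0642 and to 13.1, 16.4 and 13.5 CPM with A366, and in MP41 to 25.5, 26.2 and 25.3 CPM, then to 23, 19 and 21.9 CPM and to 18.2, 22.1 and 19.2 CPM. The inhibitor mean was 0.823 and 0.777 of the DMSO mean in Mel92.1 and 0.83 and 0.774 in MP41, for UNC0642 and A366. All inhibitor libraries other than Mel92.1 UNC0642 replicate 1 were below the DMSO range of their line. The gamma cluster was at 0.729 and 0.846 of DMSO in Mel92.1 and 0.8 and 0.714 in MP41, with all 12 inhibitor libraries below the DMSO range. Scaled by library size only, 2 of the 3 A366 libraries of Mel92.1 were below that range for the gamma cluster, and 2 of the 3 for the beta cluster. The alpha cluster was at 0.781 with UNC0642 and 0.889 with A366 in MP41, with all 6 libraries below DMSO, but at 1.2 and 1.02 in Mel92.1, where the 3 UNC0642 libraries ran from 15.3 to 31.2 CPM. With libraries as labelled the A366 ratio of the gamma cluster was 0.45 in Mel92.1 and 1.79 in MP41.

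Within the gamma cluster of MP41 the sum of the gamma A and gamma B genes and that of the gamma C genes parted with A366. These genes share constant exons, and how the counting divided those reads among them was not tested. The gamma A and gamma B genes summed to 16.2, 15.9 and 13.2 CPM with DMSO, 8.97, 12.9 and 9.37 CPM after UNC0642 and 5.85, 8.1 and 4.55 CPM with A366, the last a mean 0.409 of DMSO. The gamma C genes summed to 2.6, 3.72 and 4.07 CPM with DMSO and to 7.19, 6.01 and 8.01 CPM with A366, a mean 2.04 times that of DMSO. Most of that A366 sum was PCDHGC3, at a mean of 6.63 of 7.07 CPM, and the call of PCDHGC3 depended on the fit as given above. PCDHGC3 accordingly held 10.8%, 18.8% and 22.1% of the gamma counts with DMSO, 37.1%, 9.47% and 25.9% after UNC0642 and 53.4%, 38.5% and 59.8% with A366. In Mel92.1, where PCDHGC3 already led with DMSO, its share was 60% ± 6.8 in the DMSO libraries, 64.6% ± 9.25 after UNC0642 and 65.9% ± 4.15 after A366 (SD, n = 3), ranges that overlap.

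**Figure D5:**
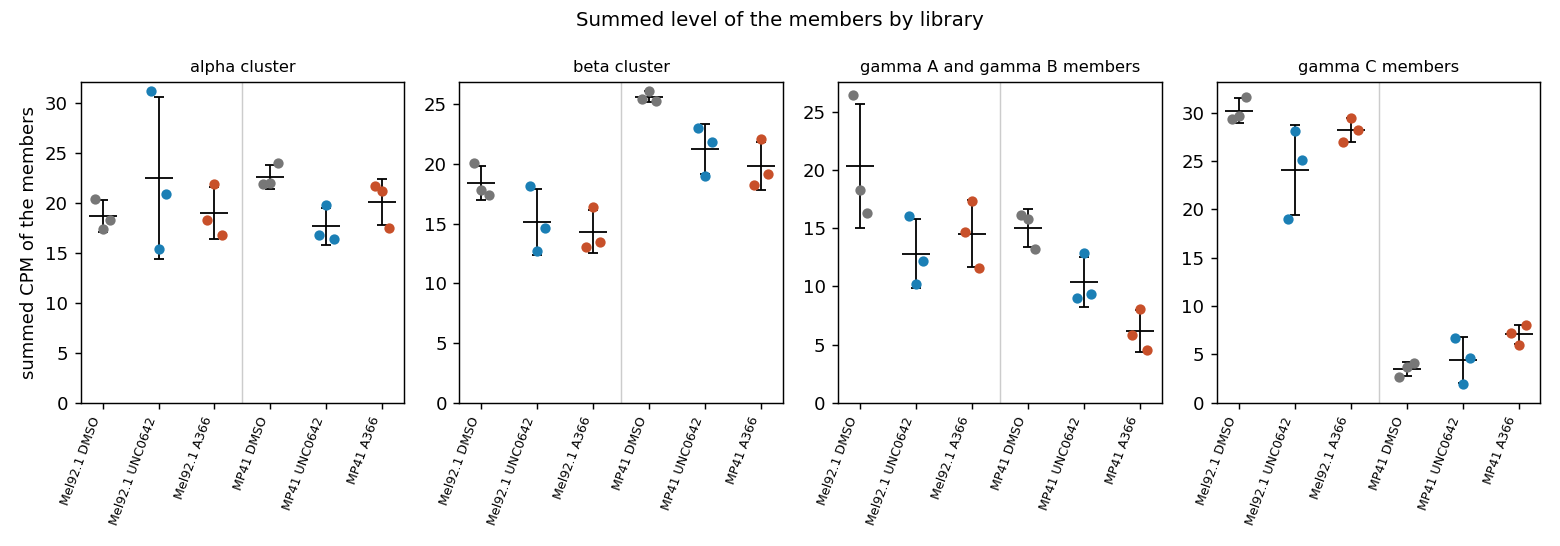
Summed CPM of the members of the alpha cluster, the beta cluster, the gamma A and gamma B genes and the gamma C genes in each library (points), with group mean and SD (bars, n = 3), each panel on its own scale from 0. The beta, gamma A and gamma B sums are lower with both inhibitors in MP41, and the gamma C sum is higher with A366 in MP41, at 7.07 CPM against 3.47 CPM with DMSO.

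The 2 inhibitors, given at the same dose and time, were also compared directly. In Mel92.1, 0 of 30 members differed between A366 and UNC0642, against 0.165% of all genes, and DESeq2 called 0 as well. An unadjusted p under 0.05 was reached by 2 of 30, against 7.21% of all genes. In MP41 3 of 32 members differed, against 43.1% of all genes. PCDHGA11 was lower with A366 than with UNC0642, at 1.4, 1.27 and 0.676 CPM against 2.71, 1.93 and 2.89 CPM (log2 difference -1.18, SE 0.31, adjusted p = 0.00959 by edgeR), as was PCDHGA9 at means of 0.23 and 0.748 CPM (log2 difference -1.67, SE 0.62, adjusted p = 0.0463 by edgeR). PCDHA12 was higher with A366, at 12.4, 9.67 and 24.7 counts against 4, 2 and 0 (adjusted p = 0.0258 by edgeR). PCDHGC3 did not pass (log2 difference 0.86, SE 0.38, adjusted p = 0.0862 by edgeR). As labelled 2 members passed, with no share of all genes given for that fit.

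Whether the lines responded differently was tested as an interaction in the fit of all 18 libraries. For UNC0642, 0 of 38 members differed between the lines, against 0.601% of all genes, and DESeq2 called 0. An unadjusted p under 0.05 was reached by 6 of 38, against 9.79% of all genes. For A366, 1 of 38 members differed between the lines, PCDHGA11, against 13.8% of all genes. It fell in MP41 as given above, while in Mel92.1 it had 2, 6 and 2.08 counts with DMSO and 7.08, 19.7 and 5.57 with A366 (log2 difference of the changes 3.37, SE 0.91, adjusted p = 0.0239 by edgeR). That value rests on few counts in Mel92.1. PCDHGC3 did not pass (log2 difference -1.17, SE 0.44, adjusted p = 0.0836 by edgeR). The call was lost without Mel92.1 A366 replicate 2 (adjusted p = 0.116 by edgeR), without Mel92.1 DMSO replicate 3 (0.0797), without MP41 A366 replicate 3 (0.071) and without MP41 DMSO replicate 2 (0.0534). As labelled 12 members passed, with no share of all genes given for that fit, so the count is not a result about the members. Without the 4 libraries, which leaves 1 A366 library a line, the log2 difference of the changes of PCDHGA11 was 2.54.

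Genes that act on these promoters were read from lists beside the members. Of 11 genes for cohesin, CTCF and loop regulators, 10 fell with A366 in MP41 and 0 rose, with PDS5B, a cohesin regulator, at a log2 change of -0.80 (SE 0.11, adjusted p = 0.000479 by edgeR), followed by STAG2, a cohesin subunit, at -0.73 (SE 0.12) and PDS5A at -0.59 (SE 0.09), and with CTCF, which binds the promoters, at -0.25 (SE 0.08, adjusted p = 0.0236 by edgeR). Against the 46.0% of genes called, the list is described by its median of -0.54. With UNC0642 in Mel92.1 1 of the 11 was called, SMC3, a core subunit of cohesin, which rose (log2 change 0.62, SE 0.08, adjusted p = 0.00796 by edgeR), and 0 were called in the other 2 comparisons. Of 20 regulators of H3K9 and DNA methylation, 2 rose and 10 fell with A366 in MP41 (EHMT2 and TRIM28, a corepressor, rose; UHRF1, which keeps DNA methylation through replication, fell, with a log2 change of -0.45 and SE 0.07, as did TET1, which oxidises methylated DNA, at -1.32 with SE 0.21, and ATF7IP, a partner of the H3K9 methyltransferase SETDB1, at -0.66 with SE 0.11), and 0 were called in the other 3 comparisons.

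Of 13 non-clustered protocadherins, 7 were tested in MP41, where with A366 PCDH1 rose (log2 change 0.39, SE 0.12, adjusted p = 0.0176 by edgeR) and PCDH7 fell (-0.57, SE 0.09, adjusted p = 0.000612 by edgeR), and 0 were called in the other 3 comparisons. Of 13 genes for the WAVE complex and cytoplasmic partners, through which the cytoplasmic part of protocadherins reaches actin, 1 rose (BRK1) and 6 fell with A366 in MP41, led by PTK2 (log2 change -0.50, SE 0.08, adjusted p = 0.00068 by edgeR) NCKAP1 (-0.53, SE 0.09, adjusted p = 0.000858 by edgeR) and WASF3 (-0.47, SE 0.09, adjusted p = 0.00177 by edgeR), and 0 were called in the other 3 comparisons with DMSO. For this list (7 of 13) and the non-clustered protocadherins (2 of 7) the counts stand against the 46.0% of all genes called with A366 in MP41. Of 21 genes that flank the arrays on the same chromosome band, 19 were tested, of which 7 rose and 4 fell with A366 in MP41, again against 46.0% of all genes, and 0 were called in the other 3 comparisons. TAF7, which lies between the beta and gamma arrays (chr5:141260225-141320821), fell (log2 change -0.43, SE 0.07, adjusted p = 0.000784 by edgeR), and DIAPH1, downstream of the gamma array (chr5:141515016-141619055), fell (-0.31, SE 0.08, adjusted p = 0.00559 by edgeR), while EIF4EBP3 (log2 change 0.85, SE 0.10) and NDUFA2 (0.66, SE 0.13), upstream of the alpha array, rose. The flanking genes had a median of 0.09 in this comparison, against -0.43 for the members.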

How the data were processed

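Strand-specific poly(A) libraries were measured in 18 samples, 3 in each of 6 groups. The deposited table gives, for each gene, the expected count that the authors obtained with RSEM, without normalization. The submitters' processing notes name Bowtie2 2.1.0, RSEM 1.2.15 and hg38, whereas the study's methods name other tools and a mouse build, and the annotation behind the counts is not given in the sources used here. All 18 columns were used and 0 were left out.

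Expected counts were rounded. Each line's 9 libraries went into 1 fit in edgeR 4.0.16 in R 4.3.3 (filterByExpr, TMM, glmQLFit, glmQLFTest, Benjamini-Hochberg over all genes tested, threshold 0.05), and all 18 in 1 fit for the line difference and the interactions. Total counts ran from 23601156 to 62941462. The common biological coefficient of variation was 0.175 for Mel92.1 and 0.109 for MP41. The script was tested on simulated data. Libraries were grouped by their labels, except that the 4 libraries labelled A366 replicates 2 and 3 were exchanged between the lines as in the study's lists. This placement, the members and the gene lists were chosen with earlier results of these data known.

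Named were members past the threshold in an inhibitor comparison, the 3 highest of each group with DMSO in each line, the 5 C-type genes, EHMT2, EHMT1 and up to 3 called genes with the lowest p of each list; others named were chosen after their values were seen. The alternatives were libraries as labelled, without the 4 libraries, DESeq2 1.42.0, RLE, library size only, no filter, a mean of at least 1 CPM, limma 3.58.1 on log2(CPM + 1), only the groups compared, a replicate block, an offset for GC content and length without and with that block (GENCODE release 29, where 23899 symbols matched by name and 703 by another symbol), and each library left out. No pair of libraries was identical.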

Additional observations from a re-analysis of the deposited data

Results flagged for a closer look

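In the main fit PCDHGA11 was the 1 member whose change with A366 differed between the lines, by 3.37 on the log2 scale (Mel92.1 minus MP41, SE 0.91, adjusted p = 0.0239 by edgeR's interaction test). It was picked out because the test of that difference passed. Its level in MP41 was at least 0.676 CPM in every DMSO and A366 library, whereas in Mel92.1 it rested on 2 to 6 counts with DMSO and 5.57 to 19.7 counts with A366. With library size only PCDHGA11 did not pass (adjusted p = 0.0519 by edgeR). DESeq2 gave PCDHGA11 no adjusted p for this interaction and called PCDHGC3 instead.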

How the results depend on the processing

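The number of members called with UNC0642 in MP41 was 0, and became 1 without the 4 exchanged libraries, without a filter, with only the 2 groups compared and after correction for GC content and length by an offset, without or with a replicate block, and 2 with DESeq2. With A366 in MP41 it was 7, and became 3 without the 4 libraries and 4 with the GC and length offset. For A366 against UNC0642 in MP41 it was 3, and became 1 without the 4 libraries or at a mean of at least 1 CPM, 5 with DESeq2 or no filter, 7 with the offset and 6 with offset and block. The interaction for A366 was called for 1 member, for 12 as labelled, and for 0 without the 4 libraries or with library size only. DESeq2's 1 call there was PCDHGC3. These counts, and those below, stand without the share of all genes called in each fit, so they are not a result about the members. The cause of these shifts was not tested. Leaving out each library in turn gave 0 to 1 members for UNC0642 in Mel92.1 (1 without UNC0642 replicate 1) and in MP41, 0 for A366 in Mel92.1, 2 to 8 for A366 in MP41, 0 for A366 against UNC0642 in Mel92.1 and 2 to 5 in MP41, 0 to 1 and 0 to 2 for the UNC0642 and A366 interactions, and 19 to 24 for the line difference. Replicate numbers did not pair the libraries, since the correlation of deviations was over 0.1 in 3 of 9 same-numbered pairs in Mel92.1 and 1 of 9 in MP41. Among differently numbered pairs it was over 0.1 in 9 of 18 in Mel92.1 and 3 of 18 in MP41. In Mel92.1 these pairs ran from -0.673 to 0.675. With a replicate block 0, 0, 0 and 6 members were called for UNC0642 and A366 in Mel92.1 and UNC0642 and A366 in MP41, 0 and 4 for A366 against UNC0642 in Mel92.1 and MP41, 0 and 1 for the interactions, and 16 for the line difference. The A366 sums moved as labelled, to 0.984 (Mel92.1) and 0.625 (MP41) of DMSO for the beta cluster and to 0.45 and 1.79 for the gamma cluster, and the UNC0642 sum of the gamma cluster in Mel92.1 moved to 0.629 with library size only. The UNC0642 sums of Mel92.1 were then at 0.996 of DMSO for the alpha cluster and 0.693 for the beta cluster. The filter left out 15 members, whose changes were not tested. Depth was 16.5 to 57.8 counts per CPM.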
